A study of Caenorhabditis elegans with 2 samples.

Results

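Binding of the tagged protein F52B5.7 was examined at 4 protein-coding genes that lie in 2 neighbouring pairs, zip-2 with dos-3 on chromosome III and pck-2 with suro-1 on chromosome I. The genes were chosen from 19973 protein-coding genes because strong regions of these data lie there, so the signal and place of those regions describe the choice and carry no test. Regions were taken when they overlapped 1 of the genes or the 1000 bp around it. This gave 7 of the 1032 regions of the optimal list, 16 of 30000 in the pooled candidate list, 17 of 30000 in replicate 1 and 14 of 30000 in replicate 2.

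The data came from chromatin immunoprecipitation followed by sequencing (ChIP-seq) with an antibody against GFP in whole young adult Caenorhabditis elegans. All animals were of the strain OP606, which carries unc-119(tm4063) III and the integrated transgene wgIs606, which encodes F52B5.7 fused at the C-terminal end to GFP and FLAG. Animals of mixed sex were collected 63 h after synchronisation as starved L1 larvae, in 2 biological replicates that form 1 group. Whole animals were used, so binding in few cells and weak binding in many cells cannot be told apart. The strain is 1 transgenic line, and the protein measured is the tagged one.

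Each pair is convergent, with the genes transcribed towards each other and overlapping at their 3′ ends. On the ce11 build, zip-2 (WBGene00019327) spans chrIII:832982-835814 on the plus strand and dos-3 (WBGene00019331) spans chrIII:835751-839591 on the minus strand, so the last 64 bp of each are shared. The gene pck-2 (WBGene00011232) spans chrI:7866136-7872100 on the plus strand and suro-1 (WBGene00011235) spans chrI:7872092-7875554 on the minus strand, with 9 bp shared. Only untranslated sequence is shared. Between the coding ends lie 212 bp in the first pair and 387 bp in the second.

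The strongest region of each pair had its summit in coding sequence, but in that of the minus-strand neighbour and not of zip-2 or pck-2. The summit beside zip-2 (chromosome III, 835964) lay 150 bp beyond the 3′ end of zip-2, in the last of 11 exons of dos-3. The summit beside pck-2 (chromosome I, 7872336) lay 236 bp beyond the 3′ end of pck-2, in the last of 10 exons of suro-1. These peaks are therefore called the dos-3 peak and the suro-1 peak here.

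The 4 genes have unrelated roles. The gene zip-2 encodes a basic leucine zipper (bZIP) transcription factor that takes part in the response to bacterial infection and to blocked translation. Its neighbour dos-3 encodes a protein with a DOS motif, a family whose members act beside ligands of the Notch receptors. The gene pck-2 encodes a phosphoenolpyruvate carboxykinase, the enzyme class that starts gluconeogenesis from oxaloacetate, and suro-1 encodes a carboxypeptidase-like protein needed for normal body shape and cuticle.

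The sequence under the dos-3 peak is given because it is the strongest of these regions in the optimal list, together with that of the zip-2 region on the same chromosome. Capitals mark the stretch between the summits of replicate 1 and replicate 2. The dos-3 window is chrIII:835863-836063 on the minus strand, in frame, and holds codons 631 to 697 of 712, with 74 bases in capitals. The zip-2 window is chrIII:833735-833935 on the plus strand, in an intron, with 67 bases in capitals. Both were read from the RefSeq sequence of the WBcel235 assembly, which ce11 names.
dos-3 coding window: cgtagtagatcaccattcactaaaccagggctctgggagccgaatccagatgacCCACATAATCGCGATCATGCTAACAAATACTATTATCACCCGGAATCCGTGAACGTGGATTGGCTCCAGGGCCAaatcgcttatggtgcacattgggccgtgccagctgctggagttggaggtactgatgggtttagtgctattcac
zip-2 first intron window: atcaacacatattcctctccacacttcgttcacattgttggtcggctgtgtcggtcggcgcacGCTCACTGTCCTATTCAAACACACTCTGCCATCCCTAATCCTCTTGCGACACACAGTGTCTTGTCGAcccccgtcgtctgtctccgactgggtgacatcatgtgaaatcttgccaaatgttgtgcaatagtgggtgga

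The dos-3 peak was the ninth strongest region of the optimal list. The region spanned chrIII:835784-836243, 460 bp, with a signal value of 510.8 (rank 9 of 1032). The signal value is the authors' own score for a region, on a scale the sources used here do not state, and the optimal list had a median of 146.8 and a range from 114.6 to 2954. Of the 460 bp, 31 bp also lay in zip-2, in its 3′ untranslated part. The summit fell on codon 664 of the 712 codons of dos-3, 213 bp inside the gene from its 3′ end and 3627 bp from its TSS (transcription start site). The nearest TSS of any protein-coding gene was one of zip-2, 1659 bp away.

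Each replicate had a strong candidate at the same place. In replicate 1 the region had a signal of 317.9 and rank 7 of 30000, with its summit at 836009. In replicate 2 the signal was 233.8 and the rank 12, with the summit at 835936. The replicate summits lay 73 bp apart, a wider gap than in 79.7% of the 998 optimal peaks with a candidate in each replicate, whose median gap was 34 bp. Both summits nevertheless lay in the last exon of dos-3, which is 476 bp long.

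A weaker region shared the start of the dos-3 peak in the pooled list and in replicate 2. In the pooled list its summit was at 836180, with a signal of 37.7 and rank 21770, and in replicate 2 at 836141, with a signal of 50.8 and rank 2139. Replicate 1 had no such region. It did not enter the optimal list.

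The suro-1 peak ranked 11 of 1032. Its region spanned chrI:7872119-7872623, 505 bp, with a signal of 440.9. No base of it lay in pck-2, since the region began beyond the end of that gene. The summit fell on codon 642 of the 664 codons of suro-1, 244 bp inside the gene from its 3′ end and 3218 bp from its TSS. The nearest TSS was that of the shortest pck-2 model, 2309 bp away.

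In replicate 1 the suro-1 region had a signal of 197.9 and rank 23, with the summit at 7872344. In replicate 2 the signal was 239.5 and the rank 11, with the summit at 7872339. The replicate summits lay 5 bp apart, a narrower gap than at most optimal peaks (10.8% had a smaller one). Their regions differed in width, 233 bp in replicate 1 and 441 bp in replicate 2.

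The order of the dos-3 and suro-1 peaks turned between the replicates. In replicate 1 the dos-3 signal was 1.61 times that of suro-1, in replicate 2 it was 0.976 times, and in the pooled list 1.16 times. With 2 replicates that differ in direction, the signals of the peaks cannot be ordered.

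A second optimal region began at the same base as the suro-1 peak. It spanned chrI:7872119-7872681, 563 bp, with a signal of 142.8 (rank 551) and its summit at 7872556, on codon 595 of suro-1 in exon 9 of 10. Replicate 2 had the stronger candidate there, with a signal of 124.7 and rank 116, against 63.5 and rank 1162 in replicate 1. The ratio of replicate 1 to replicate 2 was 0.509, lower than at all but 4.51% of the 998 optimal peaks (median 1.05). Only 4 of the 1032 optimal regions shared a start with another, so these 2 regions are an uncommon form of entry in the list.

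**Figure D1:**
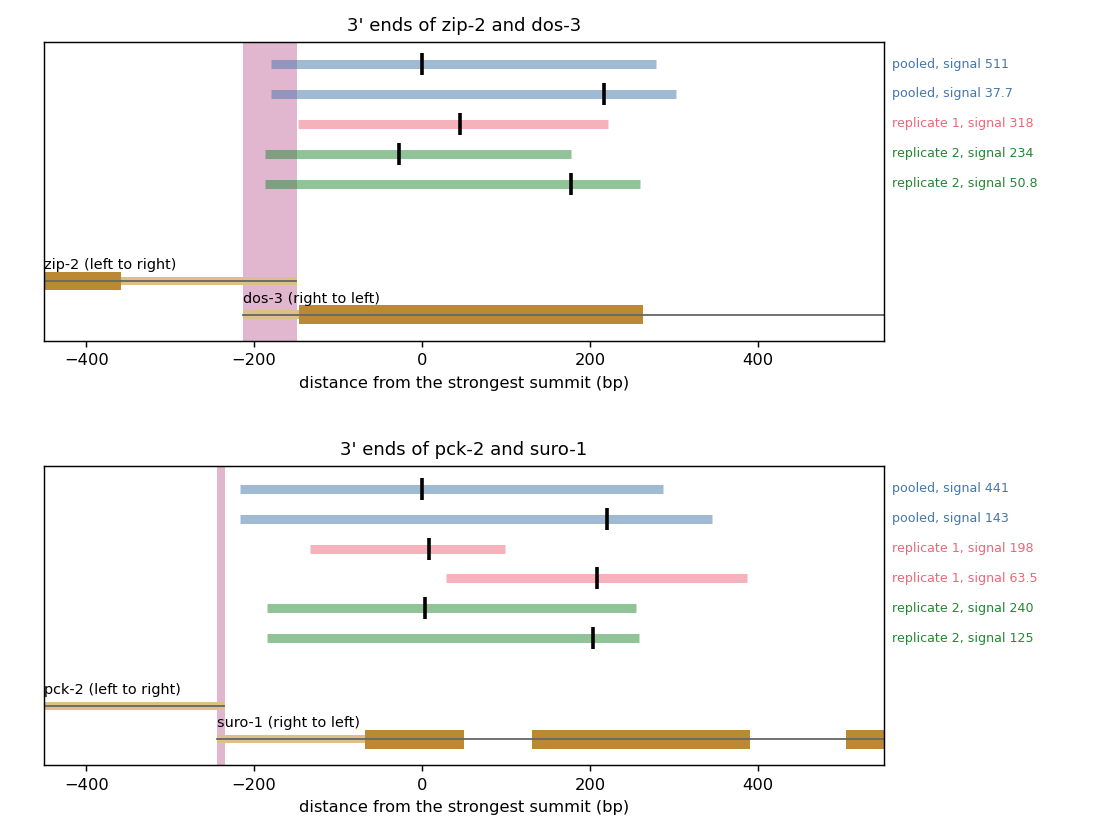
The regions of the pooled and replicate lists around the strongest summit of each pair, as bars with the summit as a black tick and the signal value at the right; the x axis is the distance from the strongest summit in bp, and the band marks the 3′ overlap of the genes. The pooled signals of 511 and 441 stand over the last exon of dos-3 and of suro-1, and all summits lie to the right of the overlap, outside zip-2 and pck-2.

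Within zip-2 itself lay 1 optimal region, far weaker than the dos-3 peak. It spanned chrIII:833640-834029, 390 bp, with a signal of 116.4 and rank 996 of 1032, near the end of the list. Its summit at 833835 lay in the first intron (1026 bp) of the longest zip-2 model, 253 bp upstream of the TSS of a shorter model. The snoRNA gene K02F3.15 lay 226 bp away in the same intron, and the long noncoding RNA gene linc-37 also lies at the start of zip-2.

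The replicates ranked this region differently. Their summits lay 66 bp apart, a wider gap than at 75.9% of the 998 optimal peaks with a candidate in each replicate. Replicate 1 gave a signal of 46.3 and rank 3692, with the summit at 833798. Replicate 2 gave 62.9 and rank 1086, with the summit at 833864. Neither rank was within the strongest 1032 of its replicate. The region was also missing from the ce10 optimal list, whose weakest signal was 116.6, while a ce10 pooled candidate of the same width, summit offset and signal had rank 995. The deposited −log10 q value, 2.82, was higher than at 4 optimal regions of the pck-2 pair with stronger signal (2.56 to 2.66), so q and signal put these regions in different orders. At the dos-3 and suro-1 peaks it was 2.98, a ceiling shared by 476 optimal regions.

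The other zip-2 and dos-3 candidates were weak. In the pooled list they had signals from 33.5 to 43.8, and ranks from 16602 to 26057, at the promoters of the shorter zip-2 models, at the far side of the dos-3 peak and deeper in dos-3. Their deposited −log10 q values ran from 0.256 to 0.428, against 2.82 and 2.98 at the optimal regions of the pair. No optimal summit lay in zip-2 coding sequence. Replicate 1 had candidates there with signals of 24.4 and 29.2, and replicate 2 had 1 of 20.8, at ranks from 14213 to 23162. High signal in the pair was thus found at the last exon of dos-3.

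**Figure D2:**
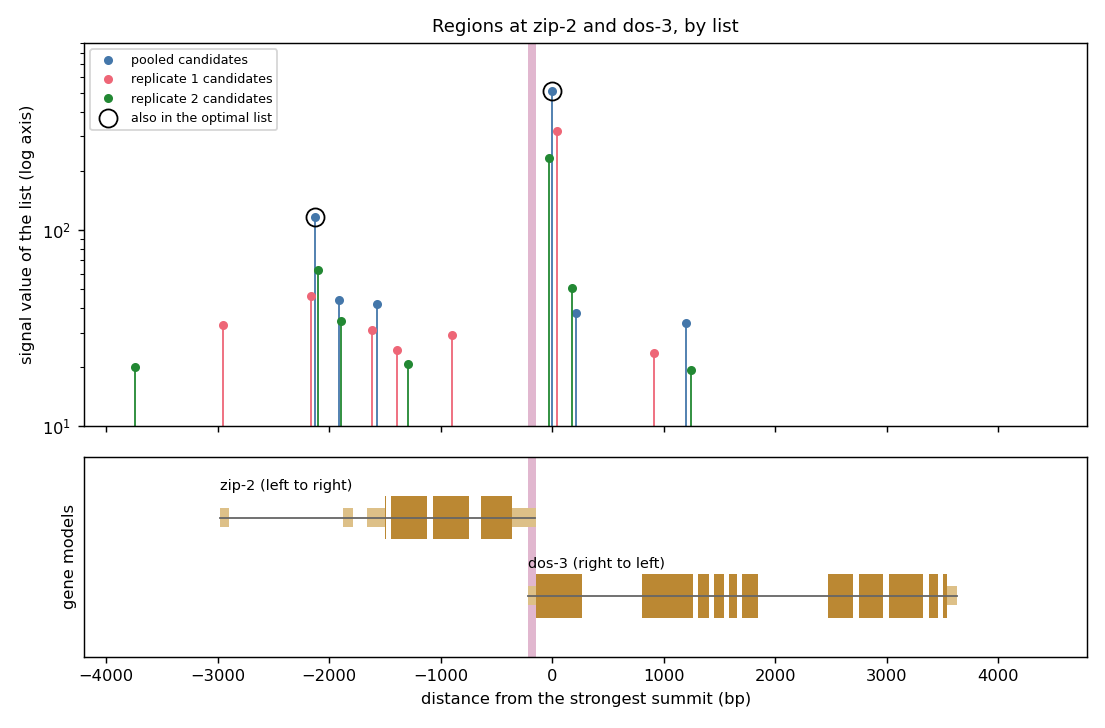
Signal value (log axis) of each region at zip-2 and dos-3 by list, against the distance of its summit from the dos-3 summit in bp, with the gene models below (wide boxes coding, narrow boxes untranslated) and the 3′ overlap as a band. The dos-3 peak reaches 511 in the pooled list and the zip-2 intron region 116, and, apart from the replicate candidates paired with those peaks, the other regions reach at most 50.8.

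The pck-2 gene held 3 further optimal regions, all in its second intron of 3378 bp. Their signals were close, at 132.8 (rank 688), 135.0 (rank 655) and 139.0 (rank 596), below the optimal median of 146.8. With the 2 regions in suro-1, 5 optimal regions overlapped pck-2 or its surroundings. By the same rule 3 of 19973 genes had 5 or more, the others being abts-1 and mnk-1. These genes are longer, at 10650 and 12624 bp against 5965 bp for pck-2, and the part of length was not tested.

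The first of the 3 had its summit at 7867127, 571 bp from the nearest TSS, with signals of 64.02 in replicate 1 and 74.8 in replicate 2 and ranks of 1124 and 609. The second had its summit at 7867848, inside R11A5.6 (WBGene00011234), a protein-coding gene on the opposite strand within the pck-2 intron. That summit fell in R11A5.6 coding sequence, 70 bp from its TSS. Its signals were 79.2 in replicate 1 (rank 512) and 62.4 in replicate 2 (rank 1110). The ratio of replicate 1 to replicate 2 was 0.856 at the first and 1.27 at the second, so the replicates ordered these regions differently.

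The last intronic region, chrI:7868991-7869107, was narrow at 117 bp, and its summit at 7869047 lay 49 bp upstream of a pck-2 TSS. Only 3.68% of optimal regions were this narrow or narrower. The signal was 57.3 in replicate 1 (rank 1689, width 360 bp) and 83.0 in replicate 2 (rank 451, width 126 bp). Most regions of a list had 1 common width. It was 390 bp for 80.7% of the optimal list, 360 bp for 99.6% of replicate 1 and 424 bp for 99.7% of replicate 2. The 360 bp in replicate 1 is thus not particular to this place. The sequence is repeated in the genome, with 2081 blastn alignments on 6 chromosomes (E-value limit 1e-05), 14 of them in the same intron. Overlapping alignments and partial ones of the region with itself were not removed, so these are not counts of distinct places. Of its stretches of 36 bases, 26.8% occurred more than once, the commonest 234 times. No ce10 region matched it in width, summit offset and signal. Between its matched neighbours ce10 had 1 unmatched optimal region, 108 bp wide with a signal of 130.9 (rank 722). If that is the same region, its width and signal changed with the build, but no coordinates were converted to show this. Reads from such copies can be hard to place, and the part this played in the signal was not tested.

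**Figure D3:**
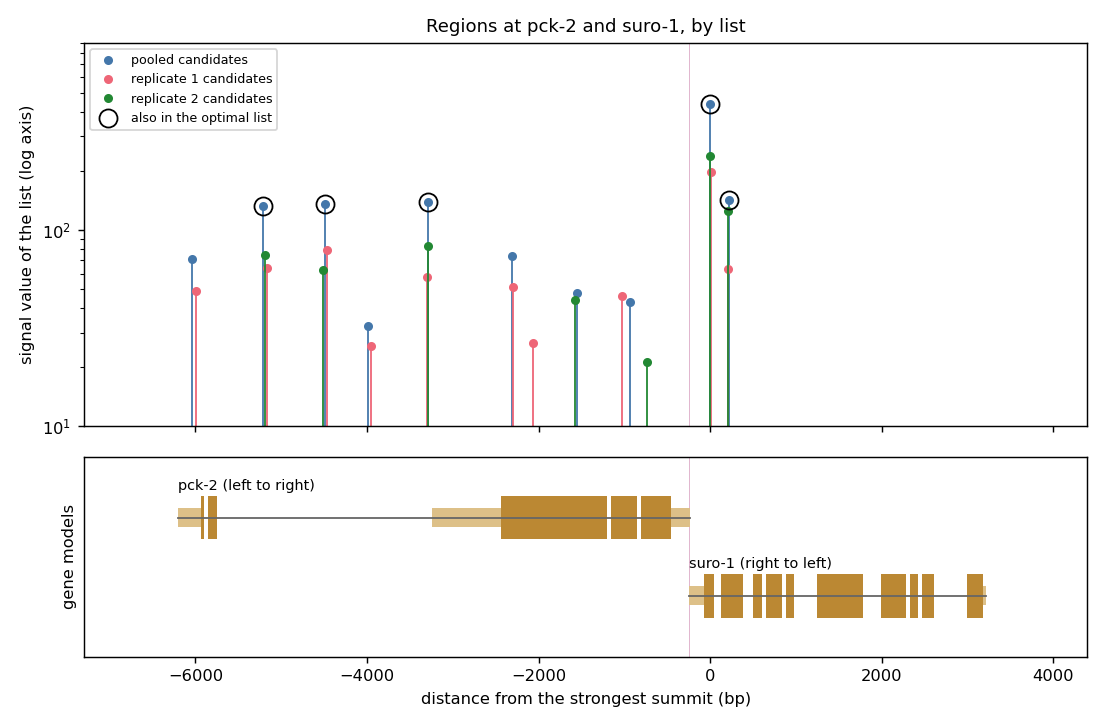
Signal value (log axis) of each region at pck-2 and suro-1 by list, against the distance of its summit from the suro-1 summit in bp, with gene models and the 3′ overlap as in the zip-2 plot. Circles mark 5 optimal regions, 3 in the long pck-2 intron between 133 and 139 and 2 in suro-1 at 441 and 143.

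The remaining pck-2 candidates lay at the 5′ end, in the long intron and over the coding exons. At the 5′ end the pooled list had a region with a signal of 71.0 (rank 4786) in the 5′ untranslated part, found in replicate 1 at 48.8 (rank 3036) and in replicate 2 not at all. Over the coding exons the pooled signals were 73.7, 47.6 and 43.0. The summit of the first of these lay 3 bp from a pck-2 TSS, and replicate 2 had no candidate there. No list had a candidate in suro-1 other than at its 3′ end.

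The next genes outside the pairs are ceeh-1, 704 bp before zip-2, K02F3.9, 866 bp after dos-3, R11A5.3, 2566 bp before pck-2, and F55D12.1, 8634 bp after suro-1. Beyond the 1000 bp limit the nearest optimal regions lay far off on most sides. They lay 53857 bp before the limit of zip-2 (signal 115.6), 10843 bp after that of dos-3 (137.9), 7259 bp before that of pck-2 (154.2) and 347807 bp after that of suro-1 (315.6). The nearest candidate outside was 1001 bp past the pck-2 limit in replicate 2, with a signal of 23.0. The region taken in that overlapped no member gene was in replicate 2, across the 5′ end of the minus-strand gene ceeh-1, with a signal of 20.1.

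All 4 genes thus had an optimal region by the rule, 2 at zip-2, 1 at dos-3, 5 at pck-2 and 2 at suro-1, with regions in the surroundings counted for both genes of a pair. Of all protein-coding genes 6.82% had one, and 1.07% had an optimal summit in their coding sequence, as dos-3 and suro-1 did. The members were chosen for these regions, so nothing is read from the comparison. Among as many strongest regions of a single replicate as the optimal list holds, 3 lay at these genes in replicate 1 and 5 in replicate 2.

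Among optimal summits in coding sequence, 221 of 1032 (21.4%, 95% exact Clopper-Pearson interval 18.9 to 24.0), the dos-3 and suro-1 peaks followed the strongest by signal. The strongest was at snpc-4 (2954), whose summit lay 914 bp from the TSS, and the next after suro-1 was at prmt-5 (320.7), 39 bp from a TSS. Of the 1032 summits, 83 lay in coding sequence and over 1000 bp from any protein-coding TSS (8.04%, exact interval 6.46 to 9.87). The median signal of these 83 was 133.4, and the dos-3 and suro-1 peaks were the strongest of them. The interval covers counting error only.

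The nearest to them in signal was stdh-1 at 251.5, so the suro-1 peak was 1.75 times as strong as the next. After it came mnk-1, a gene for a kinase that acts on a translation initiation factor (217.1), and W09D6.5 (207.7). The stdh-1 summit lay 222 bp from a 3′ end, as the dos-3 and suro-1 summits did at 150 and 236 bp, whereas those in mnk-1 and W09D6.5 lay 5058 and 1185 bp from one. The W09D6.5 summit was 49 bp from the spliced leader gene sls-2.14, while the nearest tRNA, snoRNA or snRNA gene lay 2355 bp from the dos-3 summit and 12231 bp from the suro-1 summit. A noncoding RNA gene of another class, K02F3.13 (chrIII:837056-837222, plus strand), lies within dos-3. It held the summits of weak candidates, at 837163 in the pooled list (signal 33.5) and at 837212 in replicate 2 (signal 19.3), and no optimal summit.

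**Figure D4:**
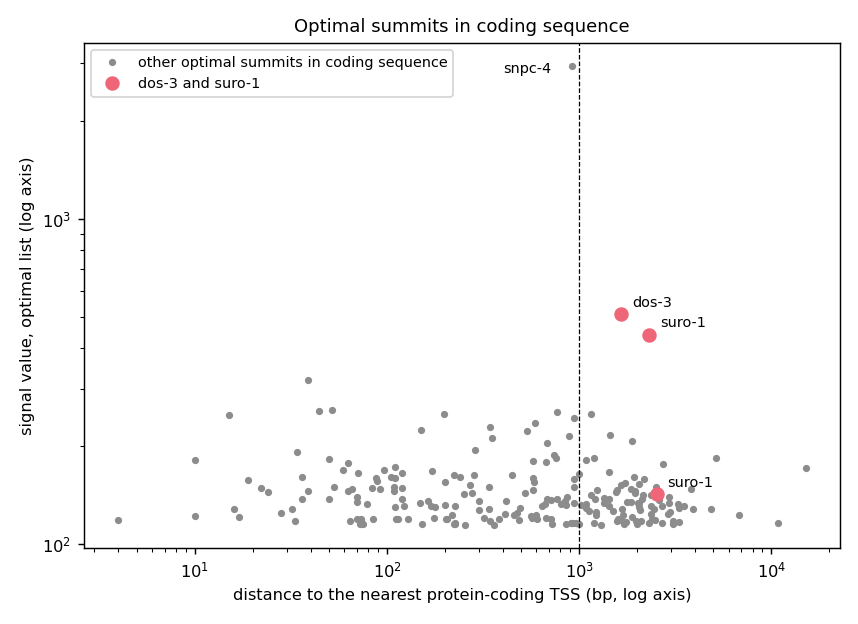
Signal value in the optimal list (log axis) against the distance to the nearest protein-coding TSS in bp (log axis) for the 221 optimal summits in coding sequence; the dashed line is at 1000 bp. The dos-3 and upper suro-1 points, at 511 and 441, stand above the other summits to the right of the line, where the next reaches 252, and the second suro-1 region, at 143, lies among them.

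Closeness to a 3′ end was common in the optimal list. Of the 1032 summits, 303 (29.4%, exact interval 26.6 to 32.2) lay within 250 bp of the 3′ end of a protein-coding gene, against 10.8% of the 28968 other pooled candidates (10.5 to 11.2). With summits over 1000 bp from a TSS alone, the shares were 26.4% of 443 optimal summits and 8.24% of 16076 other candidates. No test was made, since candidates differ from optimal peaks in signal by construction. Among the 83 coding summits away from a TSS, 27 (32.5%) lay within 250 bp of a 3′ end.

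Convergent pairs whose 3′ ends overlap number 1613 in the gene models, with a median overlap of 49 bp. Of these, 58 (3.60%) had an optimal peak whose summit lay at most 250 bp from the overlap. By signal of the strongest such summit, zip-2 with dos-3 came first and pck-2 with suro-1 second. The 2 pairs were chosen for their strong regions, so this order describes the choice. The suro-1 summit lay 236 bp from the overlap, close to the limit of 250 bp. The next, named after their values were seen, were cct-7 with zig-11 (303.5), ZK546.19 with mdt-4 (251.1) and arf-5 with mec-17 (236.4). An overlap of at most 9 bp, as at pck-2 and suro-1, was found in 9.55% of the pairs and one of at most 64 bp in 64.5%.

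Replicate signals at the 7 regions were within the range of other optimal peaks, the second suro-1 region excepted. Over the 998 optimal peaks with a candidate in each replicate, the ratio of replicate 1 to replicate 2 ran from 0.528 to 2.04 between the 5th and 95th percentiles. It was 1.36 at the dos-3 peak, 0.826 at the suro-1 peak, 0.736 in the zip-2 intron and 0.690 at the narrow pck-2 region. The second suro-1 region lay just under that range. Signals of the 2 lists are not stated to share a scale, so the ratios are set only against each other.

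**Figure D5:**
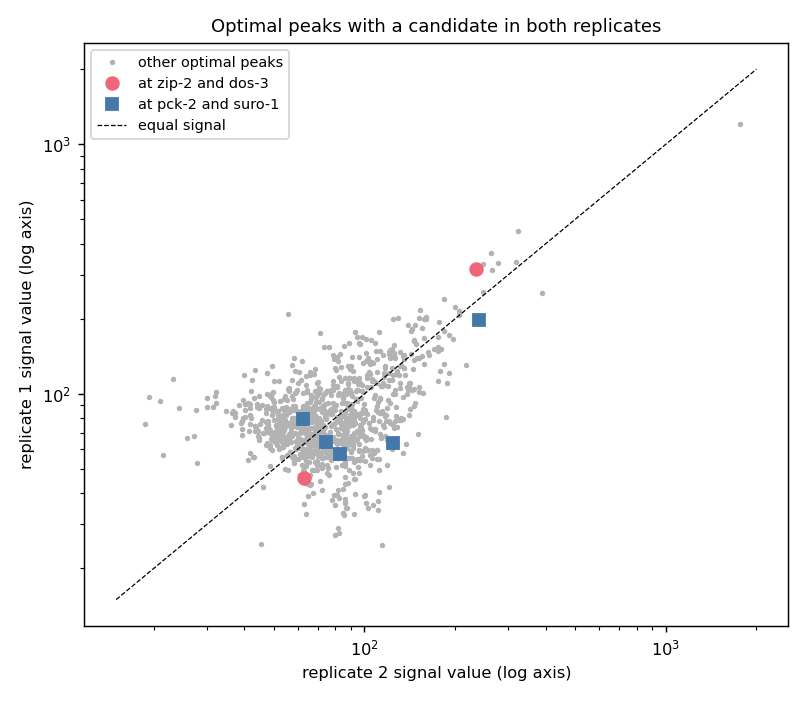
Signal value in replicate 1 against replicate 2 (log axes) for the 998 optimal peaks with a candidate in each, with the 7 regions at the 4 genes marked and a dashed line at equal values. The dos-3 and suro-1 peaks lie at the upper right. The former is above the line at 318 and 234 and the latter below it at 198 and 240. The second suro-1 region lies to the right of the line at 63.5 and 125. The other 4 lie nearer to the line than the second suro-1 region does.

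The sequences of the peaks had little in common in composition. In the 201 bp around the summit the GC content was 50.2% at dos-3 and 30.3% at suro-1, where 67.9% and 0.872% of optimal windows had less. In the zip-2 intron it was 51.2%, and the median of optimal windows was 46.3%. Neither the dos-3 nor the suro-1 region held a stretch of 36 bases found elsewhere in the genome, nor did the zip-2 intron region. Of all optimal regions, 249 held at least 1 such repeated stretch.

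The dos-3 region resembled 1 other place in the genome. Over 288 bp it matched chrIII:13580262-13580545 with 72.6% identity, in osm-7 (WBGene00003887), another gene of the family of DOS-motif proteins, where the match runs from coding sequence into the 3′ untranslated part. No optimal or pooled region lay at that place. Replicate 1 had a candidate there with a signal of 43.8 (rank 4470) and replicate 2 had none. The signal at dos-3 in replicate 1, 317.9, was far above it.

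Earlier results on these lists named 6-mers that were more frequent at optimal summits, and 5 of them were searched on either strand of the same 201 bp windows. GTTCGA, part of the internal promoter of tRNA genes, was in 19.8% of all optimal windows and 9.51% of pooled windows. AGAGCG was in 16.4% of optimal windows, GAACCC in 14.5%, ACCACT in 18.1% and ACGCAG in 16.1%. GTTCGA read on the other strand ends in the letters that begin GAACCC, so matches of these may overlap. None of the 5 was found in the windows at dos-3, the zip-2 intron, either suro-1 summit or the narrow pck-2 region. The first pck-2 intron window held 3 of the 5, all but GTTCGA and GAACCC, and the R11A5.6 window held ACGCAG.

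Other genes of the same pathways were read by the same rule, with the 6.82% of all genes as the measure. In the list of bZIP factor genes, 7 of 28 had an optimal region, zip-2 included, and crh-1 also had a summit in its coding sequence. They were zip-7 (signal 213.4), atf-7, which acts below the p38 kinase in immunity (170.3), cebp-1, a C/EBP gene known from axon regrowth (165.6), crh-1, the CREB gene (150.8), xbp-1 of the unfolded protein response (141.1) and crh-2 (131.6). None had a signal near that of the dos-3 peak, which is the one counted for zip-2. The gene atf-5 was not matched in the gene models.

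In the list of infection response genes around zip-2, 6 of 25 had a region. Besides zip-2, atf-7 and cebp-1 these were tir-1, an adaptor gene above the p38 kinase (214.0), ifet-1, a translational repressor gene (211.2), and hlh-30, the TFEB gene of autophagy and host defence (121.1). The ifet-1 summit lay 49 bp from a tRNA gene. No gene of the irg series in the list, to which known targets of zip-2 belong, had a region by this rule.

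Of 27 Notch pathway genes 3 had a region. Besides dos-3 these were dos-1, a further DOS-motif gene (181.2), whose summit lay inside a tRNA gene in a dos-1 intron, and adm-4, a gene for a membrane protease (175.1), whose summit lay 56 bp from a tRNA gene. The receptor genes lin-12 and glp-1 had none.

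Of 27 genes of gluconeogenesis and glycolysis, 8 had a region (29.6%). Besides pck-2 these were mdh-2 (251.1) and mdh-1 (181.9), both malate dehydrogenase genes, enol-1 for enolase (237.2), icl-1 of the glyoxylate cycle (215.4), gpi-1 for glucose-6-phosphate isomerase (146.0), pck-1, a second phosphoenolpyruvate carboxykinase gene (134.2), and fbp-1 for fructose-1,6-bisphosphatase (129.3). The genes pck-1, fbp-1 and icl-1 also had an optimal summit in their coding sequence. At pck-1 the strongest summit lay 943 bp from a TSS and 2429 bp short of the 3′ end, unlike at pck-2. Of 29 cuticle and body shape genes around suro-1, 1 had a region, suro-1 itself.

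These lists were chosen with results of these data known, and they are counts with no test. They include the members, which were chosen for their regions. Without the members, a region was found at 6 of 27 bZIP, 5 of 24 infection response and 2 of 26 Notch genes. For gluconeogenesis and glycolysis it was 7 of 26 genes and for cuticle and body shape 0 of 28. Genes in the first 4 lists were longer at the median (2424 to 3119 bp) than all protein-coding genes (2027 bp), and cuticle genes were shorter (1576 bp). The rule covers more bases at a longer gene, and the part of length in these counts was not tested. For 10 of the 18 listed genes outside the 2 pairs the strongest region had its summit beyond the 3′ end of the gene, among them enol-1 (84 bp), tir-1 (95 bp), xbp-1 (174 bp) and mdh-1 (188 bp), as it did for zip-2 and pck-2. Of all 1362 genes with an optimal region, 36.3% had it there. A summit at most 250 bp beyond the 3′ end was found for 4 of the 18, the genes named here. The same held for 268 of the 1362.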

How the data were processed

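ChIP-seq regions of 2 biological replicates were used as the authors deposited them, per the labels and the manifests deposited with each sample. The candidate lists came from each replicate and from both pooled, against a control experiment that was not analysed here, and the optimal list from comparing them by irreproducible discovery rate. Aligner, peak caller, versions and threshold were not given in the sources used here. For each region, signal value, −log10 q value and summit offset are the authors' deposited values, and the scale of the signal is not stated. Read depth is unknown, and each candidate list holds 30000 regions. Lists exist on ce10 and ce11. Genes, exons and coding sequence were taken on ce11 from Ensembl release 115 models of WBcel235, the same assembly, and no coordinates were converted. A TSS is the start of a protein-coding transcript.

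Ranks were taken by signal within each list. A region of another list was paired with an optimal peak by overlap of at least 1 bp and the nearest summit. A ce10 region was matched by chromosome, width, summit offset and signal within 0.1%. Exact Clopper-Pearson intervals (95%) cover counting error only. Sequences were compared with blastn 2.17.0, and the analysis used Python 3.11.15, pandas 2.3.3 and scipy 1.17.1. The lookup of coding sequence was checked only on positions planted in annotated coding exons and just beyond gene ends. Introns, untranslated parts and TSS distances were not checked in this way.

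The members and gene lists were chosen with earlier results of these data known. Genes were named by rule: the 4 members, their flanking genes, the coding summits nearest in signal, the strongest coding summit and listed genes with a region. Outside that rule, and after their values were seen, prmt-5, abts-1, osm-7, lin-12, glp-1, the irg genes, the small RNA gene sls-2.14 and 3 further convergent pairs were named. Alternatives were other windows, summits in place of regions, the stronger part of the optimal list (cut at its median rank), single replicates, RefSeq models and ce10. The comparisons of convergent pairs, 3′ ends, repeated stretches and blastn matches and the 6-mer search were added after the data were seen.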

Additional observations from a re-analysis of the deposited data

How the results depend on the processing

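No paired analysis was possible because both replicates form 1 group. The signal scale and the read depth are unknown, so signal alone does not tell weak candidates from background. The authors label the pooled candidates as peaks and background together. The weak pooled candidates at zip-2 and dos-3 had deposited −log10 q values of at most 0.428. With 2 replicates no spread can be given for a single region. Of the results recomputed, the coding-sequence summits at the 2 pairs kept a count of 3 with RefSeq gene models and every window. They numbered 2 above the median rank, and 2 to 3 with 1 replicate left out. The 7 optimal regions became 2 above the median rank, and 3 to 5 with 1 replicate left out. The share of genes with an optimal region, 6.82%, was 3.80% with the gene alone, 8.46% with 2000 bp and 3.57% above the median rank. With the gene alone, bZIP genes with a region fell to 4 and infection response genes to 3. With 2000 bp, cuticle genes rose to 3, and above the median rank gluconeogenesis genes numbered 5. The share of coding summits away from a TSS, 8.04%, was 11.9% with a limit of 500 bp, 3.97% with 2000 bp, 4.07% above the median rank, and 6.49% to 11.5% with 1 replicate left out. The share of regions ranked above the dos-3 peak was 0.775% in the optimal list, 0.0267% in the longer pooled list and 0.0200% to 0.0367% in single replicates. For the suro-1 peak it was 0.969%, 0.0333% and 0.0333% to 0.0733%. The optimal list is shorter than the others, so its shares cannot be set against theirs. Between the replicate lists, of equal length, the ranks differed. They were 7 and 12 for the dos-3 peak and 23 and 11 for the suro-1 peak. The causes of the other changes were not tested, beyond the smaller or larger windows and fewer peaks that make them.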
